A study of Homo sapiens with 8 samples.

Results

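The genes described here encode the Wnt ligands, the proteins that secrete, bind or block them, and the machinery that passes the signal to beta-catenin. They were chosen by name, with earlier results of these data known. The names of the WNT, FZD, SFRP, RSPO, DVL, LGR4 and LGR5 and casein kinase 1 genes were matched, together with a fixed set of single names such as CTNNB1, APC, AXIN1 and GSK3B. In all, 56 of the 14277 gene names in the deposited tables belonged to the set, 52 of them in the day 2 table, 55 in the day 0 table and 51 in both.

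The study measured RNA from H1, a line of human embryonic stem cells kept in mTESR medium, in 8 libraries labelled as taken during hematopoietic differentiation. The groups were SETD7 KO cells at day 2 (3 libraries), WT cells at day 2 (3 libraries), SETD7 KO cells at day 0 (1 library) and WT cells at day 0 (1 library). SETD7 encodes a lysine methyltransferase. The labels give neither the knockout allele nor how many clones it comes from, nor whether libraries of a group came from separate cultures, so each p-value speaks for the spread of these libraries alone, which may be technical.

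Wnt proteins are lipid-modified ligands that bind a Frizzled receptor together with an LRP co-receptor. Without ligand, a destruction complex built on AXIN and APC, with the kinases GSK3 and CK1, marks beta-catenin for degradation; with ligand, Dishevelled draws that complex to the membrane and beta-catenin accumulates and binds TCF/LEF factors on DNA. The pathway is known for inducing the primitive streak and mesoderm from pluripotent cells, and a beta-catenin-independent branch through ROR2 and RYK is known for steering cell movement.

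The day 2 libraries held 29647943 to 39553614 counts in SETD7 KO cells and 27880068 to 32230627 counts in WT cells. SETD7 itself was at 32.9, 28.9 and 33.7 CPM (counts scaled to a common library size, by TMM) in SETD7 KO cells, against 54.8, 56.2 and 55.6 CPM in WT cells, a log2 fold change of -0.80 ± 0.058 (SE; edgeR's quasi-likelihood test, Benjamini-Hochberg adjusted p = 9.51e-13, n = 3 each). SETD7 KO replicate 1 stood apart from the other libraries of its genotype. The chi-square per degree of freedom over genes was 6.12 and 8.74 between it and the other SETD7 KO libraries, 2.86 between those 2, and 3.05 to 4.21 between WT libraries. Defining markers of other cell types were also measured at day 2. Summed CPM of the tested endoderm markers SOX17, CXCR4 and GATA6 ran from 842.4 to 862.0 in SETD7 KO and from 909.6 to 928.3 in WT libraries, with SOX17 lower in SETD7 KO cells and the other two not called. The tested amnion and trophoblast markers summed to 40.68 to 42.92 CPM in SETD7 KO and 48.95 to 49.96 CPM in WT libraries, with 2 of 3 lower (GATA3 and ISL1). The 6 tested primitive streak and mesoderm markers summed to 3123 to 3211 CPM in SETD7 KO and 3119 to 3174 CPM in WT libraries. MIXL1 was the 1 higher, and T and HAND1 were the 2 lower. MIXL1 and EOMES supplied most of that sum, averaging 1568 and 1082 CPM in SETD7 KO cells. T averaged 41.5 CPM in SETD7 KO and 49.5 CPM in WT cells. The 5 tested pluripotency markers summed to 477.7 to 509.5 CPM in SETD7 KO and 487.1 to 499.3 CPM in WT libraries, with NANOG lower. Of the neural markers, OTX2 was tested and not called (176.8 to 187.9 CPM in SETD7 KO and 189.3 to 194.1 CPM in WT libraries). SOX2, FOXA2, PAX6, SOX1, CDX2 and KRT7 were not analysed here at day 2. The part of these marker differences in the results below was not tested, and in bulk RNA fewer cells of a type and less RNA per cell cannot be told apart.

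At day 2, SETD7 KO cells had more RNA of the receptor FZD2, the agonist RSPO3, the inhibitor SFRP2, the transcription factor TCF7L1 and the R-spondin receptor LGR5 than WT cells, and less of the ligand WNT5B, of CTNNB1 itself and of the kinase GSK3B. The changes were small: FZD2 was 1.49-fold higher, WNT5B was at 0.568 times its WT level and CTNNB1 at 0.884 times. Of the 51 members tested, 12 passed an adjusted p of 0.05, which is 23.5%, and 23.3% of all 11475 tested genes did, so the set as a whole was called no more often than other genes. It had 8 members higher, where 12.3% of all genes were, and 4 lower, where 11.0% were. The median log2 fold change was 0.01 over the members and -0.003 over all genes, and the median absolute log2 fold change was 0.09 over the members and 0.10 over all genes. Summed over the tested members, RNA stood at 6028, 5906 and 5969 CPM in SETD7 KO cells, against 5842, 5902 and 5904 CPM in WT cells. The lowest SETD7 KO total lay just above the highest WT total.

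**Figure D1:**
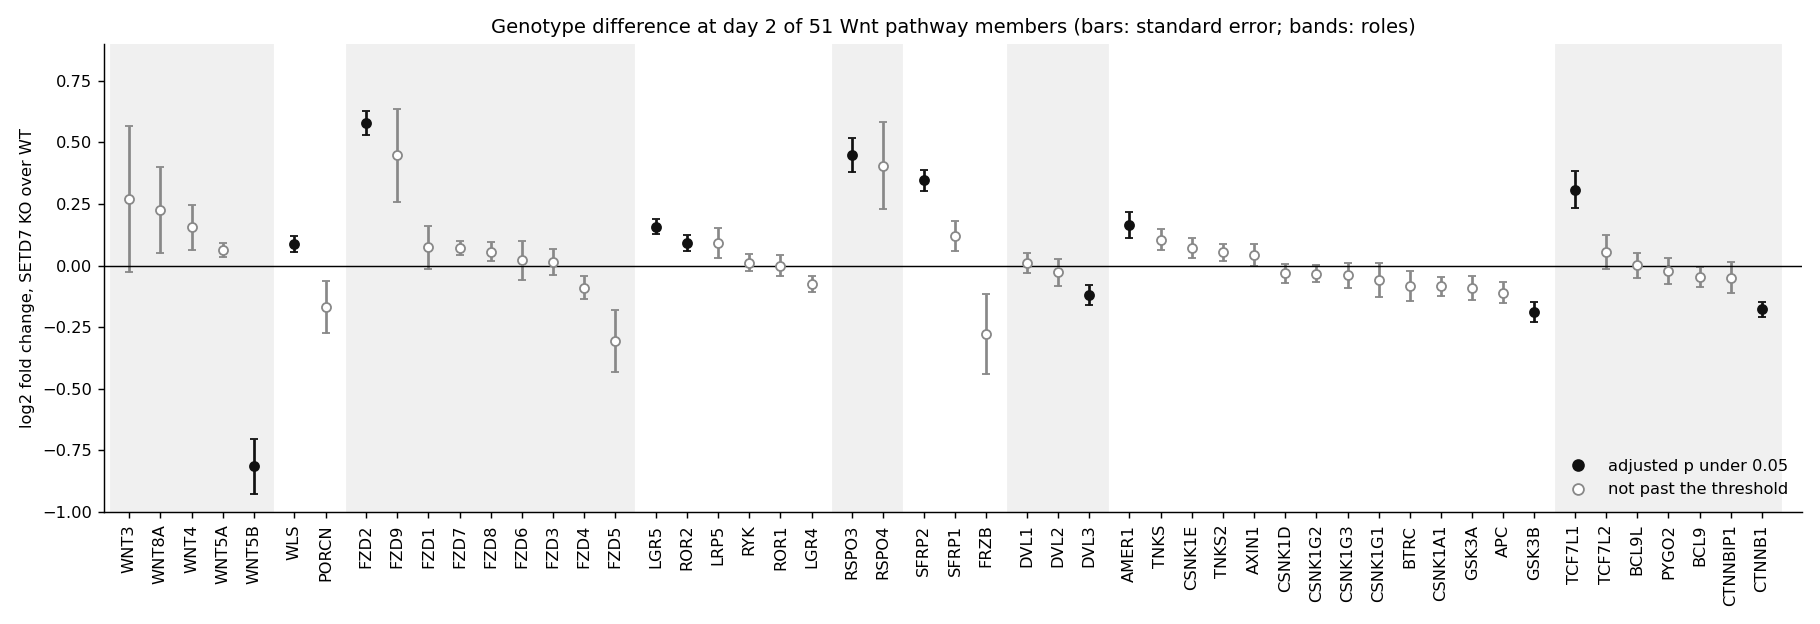
Log2 fold change at day 2 (SETD7 KO over WT) of the 51 tested members, grouped by role, with bars of 1 SE on each side (edgeR's quasi-likelihood fit, n = 3 each). The 12 called members are filled, from WNT5B at -0.82 to FZD2 at 0.58, and the other 39, drawn open, run from -0.31 (FZD5) to 0.45 (FZD9), those farthest from 0 with wider bars.

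Of the 12 calls, 8 held under every one of 15 settings (the reported fit and 14 alternatives): WNT5B, FZD2, LGR5, RSPO3, SFRP2, GSK3B, CTNNB1 and TCF7L1. The calls of WLS, ROR2, DVL3 and AMER1 were lost under 4 to 6 of them. Upper-quartile scaling gave 10 members higher and 3 lower. Adjusting for GC content and gene length, an alternative chosen after seeing the data, gave 6 higher and 13 lower. These 2 alternatives also moved the whole table. The median log2 fold change over all genes was -0.003 in the reported fit. It was 0.013 under upper-quartile scaling and -0.022 after the GC and length adjustment. Leaving out SETD7 KO replicate 1, the library that stood apart, gave 9 higher and 6 lower, and leaving out WT replicate 1 or WT replicate 3 gave 5 higher. No called member changed sign under any of the alternatives.

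**Figure D2:**
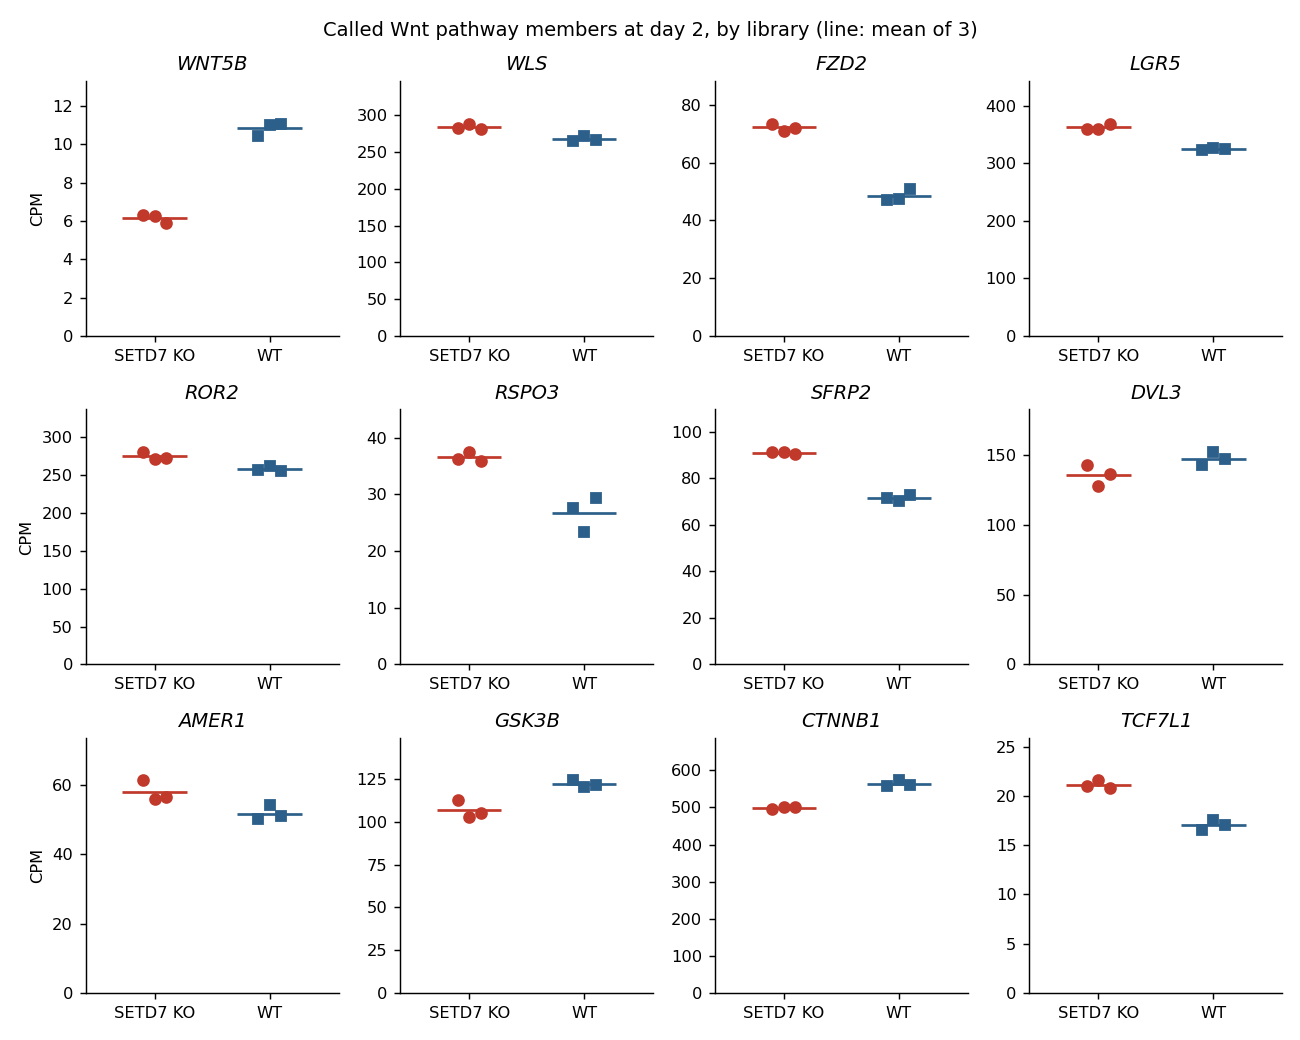
TMM-scaled CPM of each called member in each day 2 library, SETD7 KO left of WT in each panel, with a line at each mean and its own axis for each gene. In all 12 panels the 3 SETD7 KO points and the 3 WT points do not overlap; for DVL3 the highest SETD7 KO library, at 143.19 CPM, lies just under the lowest WT library, at 143.27 CPM.

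The promoters of WNT5B, which had the largest fall, and of RSPO3, which had the largest rise among members with an entry in the promoter table, are shown with that of CTNNB1, the pathway's effector, so that the letters the motif counts rest on can be seen. Each is the 250 bases before an annotated start, on the plus strand, from RefSeq (GRCh38.p14), and WNT5B has 2 such starts. Capitals mark every match, on either strand, to a TCF/LEF core (CTTTG followed by AA, AT, TA or TT), a CCAAT box (CCAAT), a GC box (GGGCGG) or a TATA box (TATAAA).
WNT5B, chr12:1616806-1617055: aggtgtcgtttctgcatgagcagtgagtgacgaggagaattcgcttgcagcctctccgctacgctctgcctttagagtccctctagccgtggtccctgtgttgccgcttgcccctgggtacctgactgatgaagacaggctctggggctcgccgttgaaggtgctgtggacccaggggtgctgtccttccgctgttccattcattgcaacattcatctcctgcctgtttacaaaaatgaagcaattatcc
WNT5B, chr12:1628981-1629230: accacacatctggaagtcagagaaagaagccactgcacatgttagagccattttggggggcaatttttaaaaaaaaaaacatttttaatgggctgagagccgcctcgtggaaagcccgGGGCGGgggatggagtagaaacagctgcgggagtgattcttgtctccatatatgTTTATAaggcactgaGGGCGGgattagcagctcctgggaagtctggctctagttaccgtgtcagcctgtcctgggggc
RSPO3, chr6:127118421-127118670: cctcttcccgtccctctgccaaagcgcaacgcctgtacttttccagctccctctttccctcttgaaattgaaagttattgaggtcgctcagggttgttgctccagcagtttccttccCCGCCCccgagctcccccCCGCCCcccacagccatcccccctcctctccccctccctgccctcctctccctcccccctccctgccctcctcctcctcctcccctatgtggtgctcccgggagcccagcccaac
CTNNB1, chr3:41199255-41199504: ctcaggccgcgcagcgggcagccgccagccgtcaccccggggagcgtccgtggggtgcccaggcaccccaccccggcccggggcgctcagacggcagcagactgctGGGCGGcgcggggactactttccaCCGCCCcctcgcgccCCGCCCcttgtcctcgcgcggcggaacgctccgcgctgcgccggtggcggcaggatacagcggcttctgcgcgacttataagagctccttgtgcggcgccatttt
The upstream WNT5B window holds none of the motifs, and the downstream one holds 2 GC boxes and a TATA box. RSPO3 has 2 GC boxes and CTNNB1 has 3. The windows shown differ in base composition, with a GC content of 54.8% and 50.8% for WNT5B, 64.8% for RSPO3 and 74.4% for CTNNB1, where the median over all windows in the table was 58%. Of the 42 members with an entry, 3 had a TCF/LEF core (CSNK1E, CSNK1G1 and TCF7L2), none of them called at day 2, and 12.0% of all 35116 windows had one. A GC box was in the windows of 36 of the 42 members, against 42.6% of all windows, and a CCAAT box in 20 of the 42, against 32.0%. A TATA box was in 3 of the 42 (CSNK1G3, FZD8 and WNT5B), against 10.7% of all windows. A member can have more than 1 window, and a match describes the letters only. FZD2 and LGR5, both called, had no entry.

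Among the ligands, WNT5B fell and the other 4 tested genes were not called. WNT5B (ENSG00000111186, chromosome 12, 1529891 to 1647243, GRCh38) is a ligand mostly studied for beta-catenin-independent signalling. It was at 6.29, 6.27 and 5.88 CPM in SETD7 KO cells, against 10.4, 11.0 and 11.1 CPM in WT cells. Every SETD7 KO library lay well below every WT library. The log2 fold change was -0.82 ± 0.111 (SE), with an adjusted p of 9.72e-07 by edgeR's quasi-likelihood test. WNT5A, its close relative and a known ligand of ROR2, supplied most of the ligand RNA per length: 93.1% of the summed CPM per kilobase of exon in SETD7 KO and 92.3% in WT cells, where WNT5B supplied 1.56% and 2.84%. With the longest transcript as the length, the WNT5B shares were 2.41% in SETD7 KO and 4.36% in WT cells. WNT5A was at 628, 629 and 638 CPM in SETD7 KO cells, against 617, 596 and 602 CPM in WT cells. The genotypes did not overlap, but the log2 fold change of 0.06 ± 0.030 (SE) had an adjusted p of 0.127 by edgeR's quasi-likelihood test, and of 0.0476 without SETD7 KO replicate 1. WNT3, a ligand required for the primitive streak in mice, averaged 1.27 ± 0.220 CPM in SETD7 KO and 1.03 ± 0.405 CPM in WT cells (SD, n = 3 each). WNT4 averaged 13.3 ± 0.882 CPM in SETD7 KO and 12.0 ± 0.545 CPM in WT cells, and WNT8A 3.53 ± 0.205 CPM in SETD7 KO and 3.02 ± 0.112 CPM in WT cells. None of these 3 was called, and at such low levels WNT3 differed more within a genotype than between them. WNT2B and WNT11 were listed only at day 0.

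WLS, the carrier that takes finished Wnt proteins to the cell surface, was slightly higher in SETD7 KO cells. It was at 283, 289 and 282 CPM there, against 265, 272 and 266 CPM in WT cells. The libraries did not overlap, with a log2 fold change of 0.09 ± 0.031 (SE) and an adjusted p of 0.0383 by edgeR's quasi-likelihood test. That call was lost under 6 of the 14 alternatives. The adjusted p in edgeR's test was 0.132 without SETD7 KO replicate 2, 0.0797 without SETD7 KO replicate 3, and 0.108, 0.0622 and 0.134 without WT replicates 1, 2 and 3. In addition, 111 bases of WLS exon lie antisense to GNG12-AS1, whose reads cannot be told apart where counting is unstranded. PORCN, the acyltransferase that adds the lipid to Wnt proteins, averaged 9.03 ± 0.632 CPM in SETD7 KO and 10.1 ± 0.334 CPM in WT cells (SD, n = 3 each) and was not called (adjusted p = 0.262 by the same edgeR fit).

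FZD2 was the only 1 of 9 Frizzled receptors called. FZD2 (ENSG00000180340, chromosome 17, 44557459 to 44559570, GRCh38) was at 73.6, 71.0 and 72.1 CPM in SETD7 KO cells, against 47.0, 47.3 and 50.8 CPM in WT cells. The lowest SETD7 KO library exceeded the highest WT library by far more than either genotype's spread. Its log2 fold change was 0.58 ± 0.049 (SE), with an adjusted p of 4.95e-11 by edgeR's quasi-likelihood test. FZD7, a Frizzled known for keeping human embryonic stem cells undifferentiated, was the most abundant per length. It was at 809, 803 and 807 CPM in SETD7 KO cells, against 769, 760 and 773 CPM in WT cells. These did not overlap, but the log2 fold change of 0.07 ± 0.029 (SE) had an adjusted p of 0.0714 by edgeR's quasi-likelihood test, which was 0.0350 without SETD7 KO replicate 1 and ran from 0.0279 to 0.278 over 15 settings. Per kilobase of exon, FZD7 supplied 69.7% of Frizzled RNA in SETD7 KO and 71.7% in WT cells, FZD8 supplied 11.8% and 12.2%, and FZD2 supplied 11.4% and 8.25%. The summed Frizzled level was 299.9 ± 2.84 CPM per kilobase in SETD7 KO and 277.4 ± 3.79 in WT cells (SD, n = 3 each), with no overlap of the libraries. The 8 uncalled Frizzled genes had log2 fold changes of -0.31 (FZD5) to 0.45 (FZD9). FZD5 was at 9.32, 6.96 and 6.25 CPM in SETD7 KO and 8.90, 9.94 and 9.22 CPM in WT cells, so its highest SETD7 KO library, replicate 1, lay among the WT libraries. Without that replicate its log2 fold change was -0.50, with an adjusted p of 0.00395 by edgeR's test. FZD9 averaged 3.25 ± 0.224 CPM in SETD7 KO and 2.39 ± 0.171 CPM in WT cells.

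Of the other receptors and co-receptors, LGR5 and ROR2 were higher in SETD7 KO cells. LGR5 (ENSG00000139292, chromosome 12, 71439770 to 71586310, GRCh38) binds R-spondins and is itself a known Wnt target in intestinal stem cells. It was at 360, 360 and 369 CPM in SETD7 KO cells, against 324, 327 and 325 CPM in WT cells. The WT libraries were nearly equal and all below the SETD7 KO libraries. The log2 fold change was 0.16 ± 0.031 (SE), with an adjusted p of 0.000187 by edgeR's quasi-likelihood test, and 208 bases of its exons lie antisense to AC078860.1. ROR2, a tyrosine kinase-like receptor for WNT5A, was at 280, 271 and 273 CPM in SETD7 KO cells, against 256, 262 and 255 CPM in WT cells. Here too the genotypes did not overlap, with a log2 fold change of 0.09 ± 0.032 (SE) and an adjusted p of 0.0316 by edgeR's quasi-likelihood test. After adjusting for GC content and length the log2 fold change was 0.04, with an adjusted p of 0.254. Without SETD7 KO replicate 3 the adjusted p of ROR2 in edgeR's test was 0.0747, and without WT replicates 1, 2 and 3 it was 0.0840, 0.0526 and 0.132. LGR4, the other R-spondin receptor of the set, ROR1, RYK and LRP5, a co-receptor of the beta-catenin branch, had log2 fold changes of -0.07 to 0.09 and were not called. LGR4 averaged 241 ± 6.97 CPM in SETD7 KO and 254 ± 7.43 CPM in WT cells, and ROR1 78.6 ± 0.541 CPM in SETD7 KO and 78.6 ± 1.90 CPM in WT cells. LRP6, the other co-receptor of that branch, had 2, 2 and 0 counts in SETD7 KO libraries and 2, 0 and 0 counts in WT libraries at day 2, too few to test. At day 0 it was listed at 11.1 FPKM in the SETD7 KO and 9.82 FPKM in the WT library (FPKM, fragments scaled for transcript length and sequencing depth). Such a near-absence was seen for 53 genes of the day 2 table (0.455%), with at most 2 counts in every library, and 24 of them had at least 5 FPKM in a day 0 library; whether it reflects the cells or the counting was not tested.

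**Figure D3:**
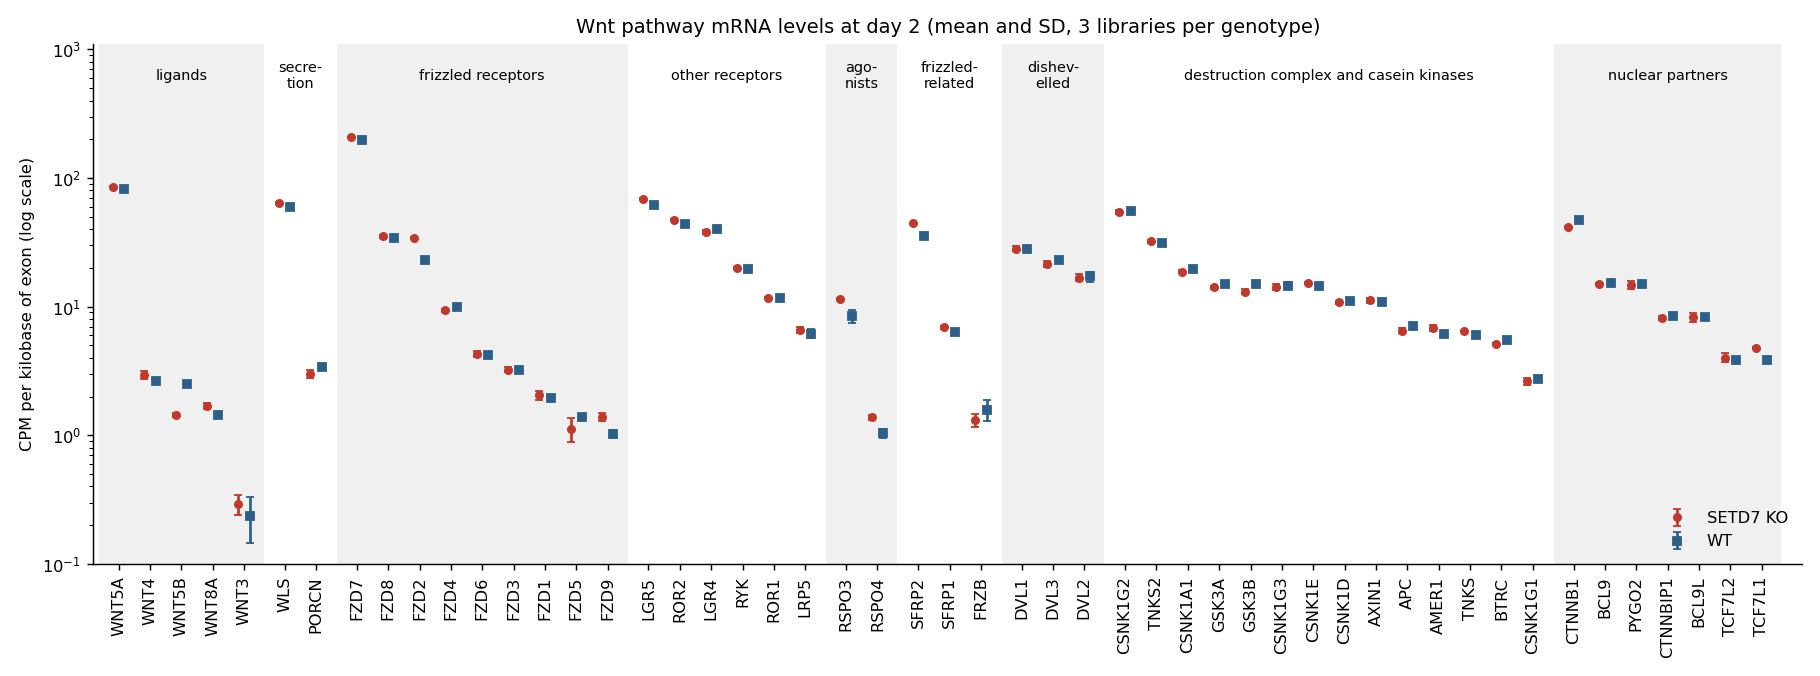
Mean level of each tested member at day 2 in CPM per kilobase of merged exons (log axis), SETD7 KO and WT, grouped by role, with SD over 3 libraries. FZD7 is highest, at 209 CPM per kilobase in SETD7 KO and 199 in WT cells, followed by WNT5A at 85.4 and 81.8.

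Among the secreted modulators, RSPO3 and SFRP2 were both higher in SETD7 KO cells. RSPO3 (ENSG00000146374, chromosome 6, 127118604 to 127197765, GRCh38), an R-spondin that strengthens Wnt signalling through LGR receptors, was at 36.3, 37.5 and 35.9 CPM in SETD7 KO cells, against 27.6, 23.4 and 29.4 CPM in WT cells. The WT libraries were spread more widely but all lay below the SETD7 KO libraries. Its log2 fold change was 0.45 ± 0.068 (SE), with an adjusted p of 6.35e-06 by edgeR's quasi-likelihood test. RSPO4 averaged 3.73 ± 0.137 CPM in SETD7 KO and 2.81 ± 0.225 CPM in WT cells (SD, n = 3 each), without overlap, and was not called (adjusted p = 0.0939 by the same edgeR fit). RSPO2 was listed only at day 0.

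SFRP2 (ENSG00000145423, chromosome 4, 153780592 to 153789120, GRCh38) encodes a secreted protein that resembles the Frizzled ligand-binding domain and can hold Wnt proteins away from their receptors. It was at 91.2, 91.4 and 90.5 CPM in SETD7 KO cells, against 71.7, 70.2 and 72.8 CPM in WT cells. Libraries of a genotype were within 3 CPM of one another, and the genotypes were far apart by comparison. The log2 fold change was 0.35 ± 0.042 (SE), with an adjusted p of 1.18e-07 by edgeR's quasi-likelihood test. SFRP2 supplied 84.5% of the RNA per length of the Frizzled-related inhibitors in SETD7 KO and 81.7% in WT cells. Their summed level was 53.0 ± 0.0944 CPM per kilobase in SETD7 KO and 43.13 ± 0.394 in WT cells. SFRP1 averaged 32.8 ± 1.08 CPM in SETD7 KO and 30.1 ± 1.54 CPM in WT cells, and FRZB 4.16 ± 0.499 CPM in SETD7 KO and 5.01 ± 0.936 CPM in WT cells; neither was called.

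Of the Dishevelled genes, which relay the signal from Frizzled to the destruction complex, DVL3 was lower by a small margin. It was at 143.19, 128.00 and 136.39 CPM in SETD7 KO cells, against 143.27, 152.34 and 147.20 CPM in WT cells. SETD7 KO replicate 1 all but met WT replicate 1. The log2 fold change of -0.12 ± 0.040 (SE) had an adjusted p of 0.0266 by edgeR's quasi-likelihood test, and the call was lost under 6 of 14 alternatives. Without SETD7 KO replicate 2 the log2 fold change was -0.08 and the adjusted p in edgeR's test 0.188, and the adjusted p was 0.0752 without SETD7 KO replicate 3, 0.156 without WT replicate 2 and 0.0733 without WT replicate 3. DVL1, the most abundant of the 3 per length, was at 112, 104 and 108 CPM in SETD7 KO cells, against 108, 107 and 106 CPM in WT cells, which overlap (log2 fold change 0.01). DVL2 averaged 90.0 ± 5.24 CPM in SETD7 KO and 91.8 ± 8.41 CPM in WT cells and was not called either.

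In the destruction complex and the casein kinases, 1 of 14 genes was higher, 1 was lower and 12 were not called. GSK3B (ENSG00000082701, chromosome 3, 119821323 to 120094417, GRCh38), a kinase that phosphorylates beta-catenin for degradation, was at 113, 103 and 105 CPM in SETD7 KO cells, against 124, 120 and 122 CPM in WT cells. SETD7 KO replicate 1 was nearest the WT libraries, and the genotypes did not overlap. The log2 fold change was -0.19 ± 0.040 (SE), with an adjusted p of 0.000600 by edgeR's quasi-likelihood test. AMER1, a scaffold that binds APC and can recruit the complex to the membrane, was at 61.2, 55.9 and 56.5 CPM in SETD7 KO cells, against 50.0, 54.1 and 50.9 CPM in WT cells. Its genotypes lay close together without overlap, and the log2 fold change of 0.16 ± 0.052 (SE) had an adjusted p of 0.0198 by edgeR's quasi-likelihood test, which was 0.0943 without SETD7 KO replicate 1, 0.0780 without WT replicate 1 and 0.0773 without WT replicate 3. GSK3A, the paralog of GSK3B, averaged 58.5 ± 1.5 CPM in SETD7 KO and 62.3 ± 1.77 CPM in WT cells (SD, n = 3 each), and its log2 fold change of -0.09 was not called (adjusted p = 0.177 by the same edgeR fit). The scaffolds APC and AXIN1 had log2 fold changes of -0.11 and 0.04. TNKS and TNKS2, the tankyrases that mark AXIN for destruction, had 0.10 and 0.05, and BTRC, which recognises phosphorylated beta-catenin for ubiquitination, had -0.08; none of these 5 was called. APC had an adjusted p of 0.0719 in edgeR's test, of 0.0176 without SETD7 KO replicate 1 and of 0.0426 without WT replicate 1. CSNK1G2, a membrane-bound casein kinase and the most abundant gene of this role per length, was at 213, 205 and 200 CPM in SETD7 KO cells, against 205, 215 and 213 CPM in WT cells. The 6 casein kinase genes lay between -0.08 (CSNK1A1, the kinase that primes beta-catenin) and 0.07 (CSNK1E), with no call. Without WT replicate 1, CSNK1A1 had an adjusted p of 0.0310 in edgeR's test.

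CTNNB1 (ENSG00000168036, chromosome 3, 41194741 to 41260096, GRCh38), which encodes beta-catenin, was lower in SETD7 KO cells. It was at 495, 500 and 501 CPM there, against 557, 573 and 561 CPM in WT cells. The genotypes were well separated, with SDs of 3.25 CPM in SETD7 KO and 8.13 CPM in WT cells. CTNNB1 had a log2 fold change of -0.18 ± 0.030 (SE), with an adjusted p of 2.89e-05 by edgeR's quasi-likelihood test and of at most 0.00144 over 15 settings. Beta-catenin is controlled mainly through the stability of the protein, which was not measured. CTNNB1 made up 43.3% of the RNA per length of its role in SETD7 KO and 46.3% in WT cells. With the longest transcript as the length, the shares were 61.6% in SETD7 KO and 64.7% in WT cells.

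TCF7L1 (ENSG00000152284, chromosome 2, 85133410 to 85310388, GRCh38), a TCF factor known mostly as a repressor in embryonic stem cells, was higher. It was at 21.0, 21.6 and 20.8 CPM in SETD7 KO cells, against 16.5, 17.6 and 17.1 CPM in WT cells. Every SETD7 KO library lay above every WT library. Its log2 fold change was 0.31 ± 0.074 (SE), with an adjusted p of 0.00221 by edgeR's quasi-likelihood test. TCF7L2, the other TCF gene of the set, was at 27.1 ± 2.11 CPM in SETD7 KO and 26.1 ± 0.851 CPM in WT cells (SD, n = 3 each), with a log2 fold change of 0.05 that was not called. CTNNBIP1, a small inhibitor of beta-catenin binding to TCF factors, and the coactivators BCL9, BCL9L and PYGO2 had log2 fold changes of -0.05 to 0.00 without a call.

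In all, 21 of the 51 tested members had no overlap between genotypes, or 41.2%, where 37.7% of all tested genes had none. The 12 called members were among them, and the other 9 were WNT5A, WNT8A, PORCN, FZD7, FZD9, RSPO4, CSNK1E, GSK3A and TNKS.

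Further genes of the pathway were counted from 7 lists of other genes, which were chosen with earlier results of these data known. The lists share genes with one another and with the cell type markers given above. DKK4 and LEF1, both called, count in more than 1 list. Over all lists, 38 different genes were called. Of the extracellular antagonists, 8 of 15 were tested, 3 were higher in SETD7 KO cells and none was lower, or 37.5%, where 23.3% of all genes were called. DKK4, an LRP-binding inhibitor, was at 21.1, 25.1 and 19.3 CPM in SETD7 KO cells, against 10.5, 10.2 and 11.6 CPM in WT cells. Its log2 fold change was 1.02. The others called were DKK3 (0.32) and CER1, an inhibitor of Nodal and BMP (0.17). Whether DKK3 and CER1 block Wnt in these cells was not tested. The 5 not called were DKK1 (-0.03), NOTUM (-0.01), APCDD1 (0.07), DKKL1 (0.04) and TRABD2A (0.24). The list's median log2 fold change was 0.12. Of receptor turnover genes and co-receptors, 9 of 13 were tested, 6 were higher and none was lower, or 66.7%, where 23.3% of all genes were called, with a median of 0.18. Without WT replicate 1, 4 of them were called. The heparan sulfate proteoglycan genes GPC4 (0.29), SDC1 (0.33) and GPC6 (0.18) and the LRP family member LRP4 (0.23) led the list by p. Not called were the receptor turnover gene ZNRF3 (0.13), TSPAN12 (0.05) and ATP6AP2 (-0.01).

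Lists of proteins inside the cell held calls in both directions. Of destruction complex regulators, 20 of 25 were tested, with 1 higher and 4 lower, or 25.0%, where 23.3% of all genes were called, and a median of -0.03. The number of calls depended on single libraries: 2 genes were called without SETD7 KO replicate 3, 2 without WT replicate 3 and 3 without WT replicate 2. After adjusting for GC content and length, 9 were called. The 5 calls included the Dishevelled-binding proteins DACT1 (0.37) and DACT3 (-0.38) and the ubiquitin ligase subunits SKP1 (-0.17) and CUL1 (-0.12). DACT1 and SKP1 were called under all 15 settings, DACT3 under 13 and CUL1 under 11 of them. Of nuclear partners of beta-catenin, 23 of 24 were tested, with 2 higher and 6 lower, or 34.8%, where 23.3% of all genes were called, and a median of -0.02. Without SETD7 KO replicate 3 the 8 calls became 4, and without WT replicate 2 they also became 4. SOX17, an endoderm factor that binds beta-catenin, was at -0.56, the TCF-family factor LEF1 at -0.44, the acetyltransferase gene CREBBP at -0.20 and the kinase gene HIPK2 at 0.21. SOX17 is also one of the endoderm markers given above.

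Of Wnt feedback and target genes, 22 of 30 were tested, with 6 higher and 8 lower, and the median was -0.02. That is 63.6% called, where 23.3% of all genes were. The 8 not called were AXIN2 (-0.12), NKD1 (-0.02), DKK1 (-0.03), NOTUM (-0.01), ZNRF3 (0.13), APCDD1 (0.07), TCF7 (0.01) and MYC (-0.01). The 4 called genes with the smallest p went both ways. The homeobox gene EVX1 (-0.81), the SP factor gene SP5 (-0.32) and the growth factor gene FGF17 (-0.37) were lower, and DKK4 was higher. EVX1 was at 23.8, 22.8 and 23.3 CPM in SETD7 KO cells, against 38.3, 43.5 and 40.7 CPM in WT cells. SP5 was at 129, 124 and 120 CPM in SETD7 KO cells, against 155, 152 and 157 CPM in WT cells. In EVX1, SP5, FGF17 and DKK4 the genotypes did not overlap. T and MIXL1, also called, are among the primitive streak and mesoderm markers given above. Apart from those given as not called, all the genes named from the lists in these 3 paragraphs had an adjusted p under 0.05 by edgeR's quasi-likelihood test. Of the called genes named, SKP1, LEF1, GPC6, LRP4, CUL1, DACT1 and EVX1 overlap another gene, so part of their counts may belong to it.

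At day 0 there was 1 library per genotype, so the values below are a description with no replicate check. Of the 55 members in that table, 47 reached 1 FPKM in either library. Past 1.5-fold on the FPKM + 1 scale were 11 of these 47, or 23.4%, where 13.6% of 13284 genes were. In direction, 3 were higher in the SETD7 KO library, where 4.81% of all genes were, and 8 were lower, where 8.77% were. The median log2 ratio was -0.22 over the members and -0.03 over all genes. Only 1 member, SFRP1, was past 1.5-fold with a pseudocount of 5 FPKM, and 6 were with a minimum of 5 FPKM.

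The largest day 0 difference was in SFRP1, with 79.0 FPKM in the SETD7 KO and 176 FPKM in the WT library (log2 ratio -1.15). SFRP2 went the other way without passing the threshold, with 116 FPKM in SETD7 KO and 81.1 FPKM in WT. Among the Frizzled genes, FZD7 had 84.5 FPKM in SETD7 KO and 55.9 FPKM in WT (0.59), and FZD5 16.7 FPKM in SETD7 KO and 10.8 FPKM in WT (0.59). These 2 receptors were thus higher in the SETD7 KO library. FZD2 had 2.45 FPKM in SETD7 KO and 4.30 FPKM in WT (-0.62), and FZD8 0.952 FPKM in SETD7 KO and 2.13 FPKM in WT (-0.68). FZD2 therefore stood on the side opposite to its day 2 change.

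APC had 4.70 FPKM in SETD7 KO and 2.36 FPKM in WT (0.76). LGR4 had 17.1 FPKM in SETD7 KO and 27.0 FPKM in WT (-0.63), DVL1 11.1 FPKM in SETD7 KO and 18.9 FPKM in WT (-0.72), and CSNK1G1 2.75 FPKM in SETD7 KO and 5.98 FPKM in WT (-0.90). None of these 4 was called at day 2. SFRP5, with 1.89 FPKM in SETD7 KO and 3.82 FPKM in WT (-0.74), and WNT11, with 0.171 FPKM in SETD7 KO and 1.04 FPKM in WT (-0.80), were not analysed here at day 2. CTNNB1 had 90.0 FPKM in SETD7 KO and 78.2 FPKM in WT (0.20), within the 1.5-fold limit.

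**Figure D4:**
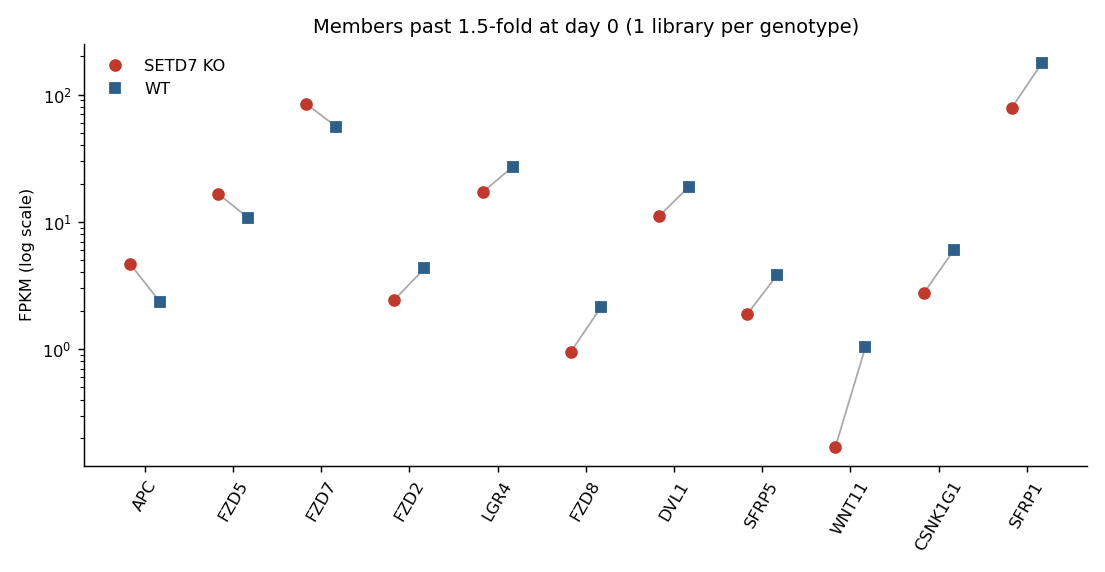
FPKM (log axis) of the 11 members past 1.5-fold at day 0, with the SETD7 KO library left of the WT library for each gene and a line joining the pair, 1 library per genotype. The lines run down to WT for APC, FZD5 and FZD7 and up to WT for the other 8, among which SFRP1 has 79.0 FPKM in SETD7 KO and 176 FPKM in WT.

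The 2 days were measured in different units, so members were placed by percentile among the 11150 genes with a length that both tables hold, with no test. Of 50 members placed, 9 stood at least 40 percentile points higher at day 2 than at day 0 in WT cells and 2 at least 40 points lower. In SETD7 KO cells the counts were 8 higher and 3 lower. How many of the 11150 genes moved as far was not counted, so these counts cannot be read as particular to the members. WNT5A stood at percentile 96.3 at day 2 and 2.71 at day 0 in SETD7 KO cells, and at 95.9 and 3.65 in WT cells. LGR5 stood at 95.3 and 0.98 in SETD7 KO cells and at 94.4 and 0.59 in WT cells. WLS, ROR2, FZD8 and RSPO3 moved the same way in both genotypes. FZD2 stood at 89.2 at day 2 and 11.4 at day 0 in SETD7 KO cells, and at 82.8 and 20.5 in WT cells. Going down the ranking, TCF7L1 stood at 40.3 at day 2 and 89.8 at day 0 in SETD7 KO cells, and at 35.4 and 89.3 in WT cells. SFRP1 stood at 51.0 and 94.2 in SETD7 KO cells and at 48.4 and 97.9 in WT cells. These genes were named for their distance between days, so that distance is a description. FZD2 also differed in place between genotypes at both days (above). At day 2 RSPO3 stood at percentile 66.2 in SETD7 KO and 56.6 in WT cells. WNT5B, which moved less than 40 points between days, stood at 14.3 in SETD7 KO and 25.8 in WT cells at day 2. APC passed 40 points in WT cells only (51.4 at day 2 and 9.49 at day 0, against 49.4 and 24.9 in SETD7 KO cells), and FZD5 in SETD7 KO cells only (10.5 at day 2 and 65.6 at day 0, against 14.7 and 50.5 in WT cells). These differences in percentile between genotypes were not tested. Those of APC and FZD5, and that of FZD2 at day 0, rest on the 1 library per genotype at day 0. Those of FZD2, RSPO3 and WNT5B at day 2 rest on 3 libraries per genotype. There the RNA of FZD2 and RSPO3 was called higher and that of WNT5B lower (above).

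**Figure D5:**
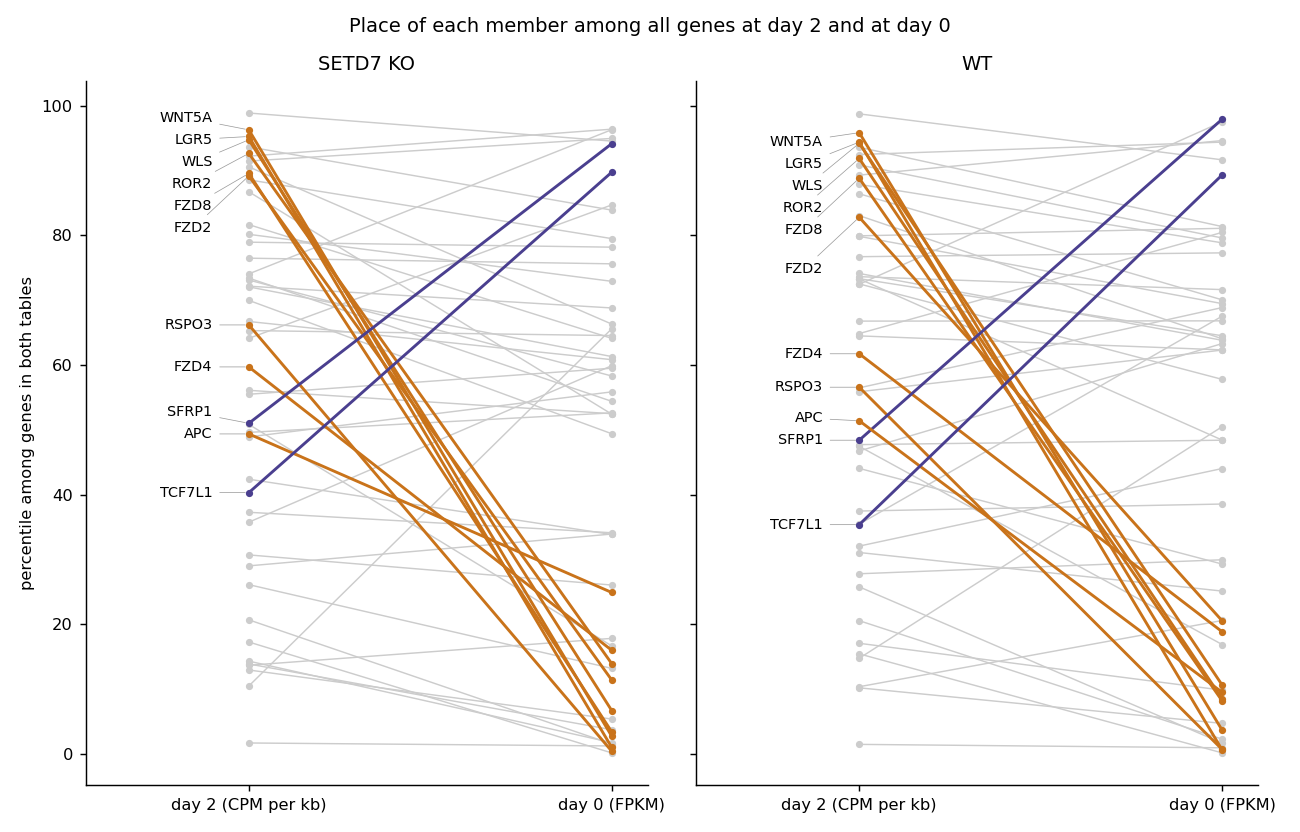
Percentile of each of 50 members among the genes in both tables at day 2 (CPM per kilobase) and day 0 (FPKM), with SETD7 KO in the left panel and WT in the right panel. Named and coloured are the members whose percentile differs by at least 40 points between days in WT cells: 9 higher at day 2, among them WNT5A and LGR5, and 2 lower, TCF7L1 and SFRP1.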

How the data were processed

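RNA-seq of 8 libraries of H1 cells was used, grouped by the genotype, day and replicate number in the sample titles. The deposited values are, per the file headers, counts of reads by gene at day 2 and FPKM at day 0; the submitters' processing notes name HISAT2, StringTie and GRCh38 (hg38) with no version. Which counter, strand setting and annotation were used is not given in the sources used here.

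Day 2 counts (11644 genes) were filtered with filterByExpr to 11475 genes and TMM-scaled. They were tested in edgeR 4.0.16 in R 4.3.3 (glmQLFit, robust, and glmQLFTest, 2-sided, with genotype only). Benjamini-Hochberg adjustment ran over all tested genes, with a threshold of 0.05. The step was also run on simulated data. The changes simulated were larger than those of most called members, so that run does not cover small changes. In the day 2 data the biological coefficient of variation was 4.14%. SE is the absolute log2 fold change over the square root of F. DESeq2 1.42.0, limma 3.58.1 voom, other scalings and filters, a replicate block and leaving out each library were alternatives. Lengths, positions and exon overlaps (bedtools 2.31.1) came from GENCODE 29 (GRCh38), promoters from RefSeq. Day 0 ratios used log2(FPKM + 1), which understates changes of low genes, for genes of at least 1 FPKM, with a limit of 1.5-fold; the day 0 depth is unknown.

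Values of every library are given for called members, CTNNB1 and the most abundant member per length of each role, and at day 0 for members past 1.5-fold. Of each further list, up to 4 called genes with the smallest p are named. Those of them given per library, and FZD5, were chosen for it after their values were seen. Uncalled genes of the antagonist, receptor turnover and target lists, with T and MIXL1, were also named after their values were seen. The members and lists were chosen with earlier results of these data known. The lists were antagonists, receptor turnover, destruction complex regulators, nuclear partners, planar polarity and calcium branch, adherens junction partners, and targets.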

Additional observations from a re-analysis of the deposited data

Results flagged for a closer look

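FZD2 went opposite ways at the 2 days: its log2 fold change was 0.579 at day 2, with 72.2 ± 1.28 CPM in SETD7 KO and 48.4 ± 2.14 CPM in WT cells (SD, n = 3 each), and its log2 ratio was -0.62 at day 0, with 2.45 FPKM in the SETD7 KO and 4.30 FPKM in the WT library. Every SETD7 KO library lay above every WT library at day 2 and the 1 SETD7 KO library lay below the 1 WT library at day 0. The difference between the days was not tested, since day 0 has 1 library per genotype and another unit. At day 0 FZD2 lay under the alternative minimum of 5 FPKM in either library. With a pseudocount of 5 FPKM only SFRP1 was past 1.5-fold. The median day 0 log2 ratio was -0.22 over the members and -0.03 over all genes.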

How the results depend on the processing

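Of the 12 members called at day 2, WNT5B, FZD2, LGR5, RSPO3, SFRP2, GSK3B, CTNNB1 and TCF7L1 stayed past the threshold under all 14 alternatives, and AMER1, DVL3, ROR2 and WLS did not. Among 714 member values under those alternatives, 22 calls were lost (4 members), 19 were gained (12 members) and 25 signs changed, none of a called value. The number of members called was 12 or 13 under other scalings, filters and tools. It was 19 (13 of them lower) after adjusting for GC content and length, chosen after seeing the data; the cause was not tested. Without 1 library it ran from 8 to 15, with 5 to 9 higher and 3 to 6 lower. Over all genes the count was 2668, with 3361 after the GC and length adjustment and 2005 to 2509 without 1 library. At day 0, 11 members were past 1.5-fold, 1 with a pseudocount of 5 FPKM and 6 with a minimum of 5 FPKM.

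Same-numbered day 2 libraries did not deviate together (correlations of -0.07, -0.07 and -0.04). The labels do not say whether such libraries were prepared together, and these correlations cannot settle it. With a replicate block 9 members were called (6 higher, 3 lower) and 2210 of all genes; of the destruction complex regulators, 3 were called in place of 5.

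The precision of WNT3, near 1 CPM, is limited by its few counts; why LRP6 had almost none at day 2 was not tested. RNA alone was measured, so no protein level, secretion or phosphorylation is given, and the p-values cover these 6 libraries.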

Other observations

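Wnt signalling also runs through a beta-catenin-independent branch. Of its 25 listed planar polarity and calcium genes, 22 were tested, with 1 higher and 1 lower in SETD7 KO cells (9.09%, where 23.3% of all genes were called) and a median log2 fold change of -0.0003. After adjusting for GC content and length 5 of the 22 were called, where over all genes the count was 3361, against 2668 without it. CELSR3, an atypical cadherin of planar polarity, was at 60.2, 49.1 and 50.7 CPM in SETD7 KO cells, against 41.1, 44.9 and 38.6 CPM in WT cells (log2 fold change 0.36 ± 0.071 SE, edgeR's adjusted p = 0.000717). VANGL1, a membrane protein of the same branch, was at 92.8, 86.5 and 93.3 CPM in SETD7 KO cells, against 102, 102 and 103 CPM in WT cells (-0.17 ± 0.041 SE, edgeR's adjusted p = 0.00210). In neither gene did the genotypes overlap. Exons of CELSR3 overlap the annotated gene MIR4793.

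Beta-catenin also joins cadherins to the actin cytoskeleton. Of 10 genes of that complex, 8 were tested, with 1 higher and 1 lower (25.0%, where 23.3% of all genes were called); after adjusting for GC content and length, 4 were called. VCL, the actin-binding protein vinculin, was at 504, 471 and 472 CPM in SETD7 KO cells, against 442, 445 and 436 CPM in WT cells (0.13 ± 0.032 SE, edgeR's adjusted p = 0.00293). CTNND1, the cadherin-binding p120 catenin, was at 334, 321 and 319 CPM in SETD7 KO cells, against 348, 367 and 348 CPM in WT cells (-0.13 ± 0.032 SE, edgeR's adjusted p = 0.00383). Exons of both VCL and CTNND1 overlap other annotated genes, so part of their counts may belong to those.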
